A study of Mus musculus with 12 samples.

Results

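The genes of the sterol regulatory element binding proteins (SREBPs) and of the proteins that process them were described in mouse cardiomyocytes: the 2 factor genes Srebf1 and Srebf2, and the processing genes Scap, Insig1, Insig2, Mbtps1 and Mbtps2. These 7 genes were listed by name and found by matching the Ensembl identifiers of the count tables to a GRCm38 annotation. They are 7 of 55335 identifiers, and all 7 were among the 16932 genes tested. The group was chosen by the measured Srebf1 counts, which were known to be lower in ApoeKO_HFD and in ApoeKO_CD than in WT_CD, so those 2 differences are given as description, and neither their calls nor the loss of a call is used as support.

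Cardiomyocyte RNA came from male mice, for which the design text gives an age of 7 to 8 weeks. This age is not tied here to the start of the diet or to RNA collection. Wild-type C57BL/6J mice and ApoE KO mice (B6.129P2-Apoe tm1Unc/J), which carry a disrupted apolipoprotein E gene in every cell, ate chow (CD) or a Western-type high fat diet with 0.21% cholesterol (HFD) for 7 weeks. The 4 groups of 3 libraries are WT_CD, WT_HFD, ApoeKO_CD and ApoeKO_HFD. WT_HFD replicate 3 was left out, which leaves 11 libraries and n = 2 for WT_HFD. Whether replicates were separate animals is not given in the labels, and p-values therefore cover only the variation among these libraries, which may be technical.

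SREBPs are made as inactive precursors anchored in the membrane of the endoplasmic reticulum. SCAP binds the precursor and senses sterols. When sterols are plentiful, the INSIG proteins hold the SCAP complex in the endoplasmic reticulum. When they are scarce, SCAP carries the precursor to the Golgi apparatus in COPII vesicles, where the site-1 protease (encoded by Mbtps1) and then the site-2 protease (Mbtps2) cut it and free the part that enters the nucleus. SREBP-1 is known mainly for genes of fatty acid synthesis and SREBP-2 for genes of cholesterol synthesis and uptake. RNA levels do not measure this cleavage.

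Srebf1 (ENSMUSG00000020538, chromosome 11, 60199089 to 60222581, minus strand) is transcribed from more than 1 start site, and the 250 bases before each start were read from the RefSeq promoter table (build GRCm38.p6), which matched all 7 genes. Here 4 of these windows are shown because Srebf1 was the gene that set the libraries apart and its windows differ from each other and from those of Srebf2 and Insig1. For this, 5 letter strings were searched on both strands: the CCAAT box, the E-box CACGTG, the core TCACCC of a sterol regulatory element (SRE), the string GGTTAC from the element bound by the oxysterol receptor LXR with its partner RXR, and the GC box GGGCGG. Matches, also those that read on the other strand, are in capitals. RefSeq lists 3 Srebf1 starts. The window of the most upstream one, chr11:60222582-60222831, is not printed. The middle window lies at chr11:60220628-60220877 and the most downstream one, before the start known for the SREBP-1c transcript, at chr11:60210472-60210721. The Srebf2 window is chr15:82147019-82147268 (plus strand) and the Insig1 window chr5:28071162-28071411 (plus strand).
Srebf1, middle start: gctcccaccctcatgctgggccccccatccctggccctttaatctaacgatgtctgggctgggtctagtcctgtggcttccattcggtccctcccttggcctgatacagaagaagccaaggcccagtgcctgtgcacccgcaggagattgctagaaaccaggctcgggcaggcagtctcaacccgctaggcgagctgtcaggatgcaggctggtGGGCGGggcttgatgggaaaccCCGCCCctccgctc
Srebf1, downstream start: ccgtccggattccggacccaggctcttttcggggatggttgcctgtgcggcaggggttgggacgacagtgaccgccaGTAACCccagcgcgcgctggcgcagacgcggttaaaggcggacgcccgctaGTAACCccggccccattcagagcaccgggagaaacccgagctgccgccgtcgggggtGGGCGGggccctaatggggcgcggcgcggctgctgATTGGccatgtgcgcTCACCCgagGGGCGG
Srebf2: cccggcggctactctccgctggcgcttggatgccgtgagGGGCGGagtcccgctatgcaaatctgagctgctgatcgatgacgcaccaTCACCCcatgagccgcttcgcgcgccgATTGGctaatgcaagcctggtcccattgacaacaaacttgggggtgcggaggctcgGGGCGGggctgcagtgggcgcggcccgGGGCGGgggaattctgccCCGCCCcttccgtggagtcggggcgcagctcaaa
Insig1: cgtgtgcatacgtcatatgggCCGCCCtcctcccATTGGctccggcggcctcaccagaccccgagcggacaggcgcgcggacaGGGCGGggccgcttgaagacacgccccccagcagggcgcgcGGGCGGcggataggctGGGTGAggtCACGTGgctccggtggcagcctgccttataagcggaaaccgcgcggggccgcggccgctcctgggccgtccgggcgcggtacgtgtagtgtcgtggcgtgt
The downstream Srebf1 window held 2 LXR element parts, 1 SRE core, 1 CCAAT box and 2 GC boxes, the middle window 2 GC boxes alone, and the most upstream window 1 CCAAT box alone. The Srebf2 window held 1 SRE core, 1 CCAAT box and 4 GC boxes. Insig1 had 1 SRE core, 1 E-box, 1 CCAAT box and 3 GC boxes. Some of these strings also lay in windows of other members that are not printed. The Mbtps1 window held 1 LXR element part. The Insig2 windows at chr1:121328025-121328274 and chr1:121327679-121327928 held 1 SRE core each, and the Scap window at chr9:110333106-110333355 held 1 E-box. Among 32851 RefSeq promoter windows of the same length, 5.98% held the LXR string, 13.8% the SRE core, 33.8% the CCAAT box, 6.02% the E-box and 32.7% the GC box. A match is a description of letters and not of a bound site. The count tables hold 1 value per gene, so RNA from the 3 Srebf1 starts cannot be told apart here.

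The 11 libraries held 22130323 to 46424614 counts on genes, of which 51.5% to 71.3% fell on the mitochondrial genome, leaving at least 9340449 on nuclear genes. WT_HFD replicate 3 held 1347110 counts and appeared to be counted on the opposite strand. Over Scap, it had 139 counts on the antisense transcript 5830462I19Rik and 22 on Scap, against 1 to 12 and 292 to 578 in the 11 others. Other opposite-strand neighbours of members did not exceed the member in that library. Rai1 had 23 counts and Srebf1 26, Gm37174 0 and Insig2 5, and Gm6568 2 and Mbtps2 5. The 12 cardiomyocyte markers summed to 91550 to 107400 CPM (counts scaled to a common library size), and the adipocyte and hepatocyte markers to 0.378 to 1.72 and 0.158 to 0.976 CPM. The level of Apoe, the gene disrupted in the knockout, was opposite to the labels on chow. Apoe had 2.91, 2.12 and 3.60 CPM in the libraries labelled WT_CD, 25.2, 23.9 and 6.92 in those labelled ApoeKO_CD, 18.9 and 8.43 in WT_HFD, and 1.94, 3.02 and 3.15 in ApoeKO_HFD. Every group name below therefore means the libraries labelled so, and each direction on chow rests on those labels. All CPM values use TMM scaling, which adjusts library totals on the assumption that most genes do not differ.

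All 7 genes were expressed at low to moderate levels. Per kilobase of exon, the mean over the 11 libraries was 3.80 CPM for Srebf1, 2.52 for Insig2, 2.07 for Mbtps1, 1.76 for Scap, 1.70 for Insig1, 1.11 for Srebf2 and 0.404 for Mbtps2. Srebf1 was also the most variable member, with a 4.09-fold range between its highest and lowest library. The range was 2.80-fold for Mbtps2, 1.88-fold for Insig2, 1.79-fold for Insig1, 1.53-fold for Srebf2, 1.34-fold for Mbtps1 and 1.25-fold for Scap. Counts ran from 48 to 209 for Mbtps2 and from 110 to 1147 for the other members, so counting error weighs most on Mbtps2.

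**Figure D1:**
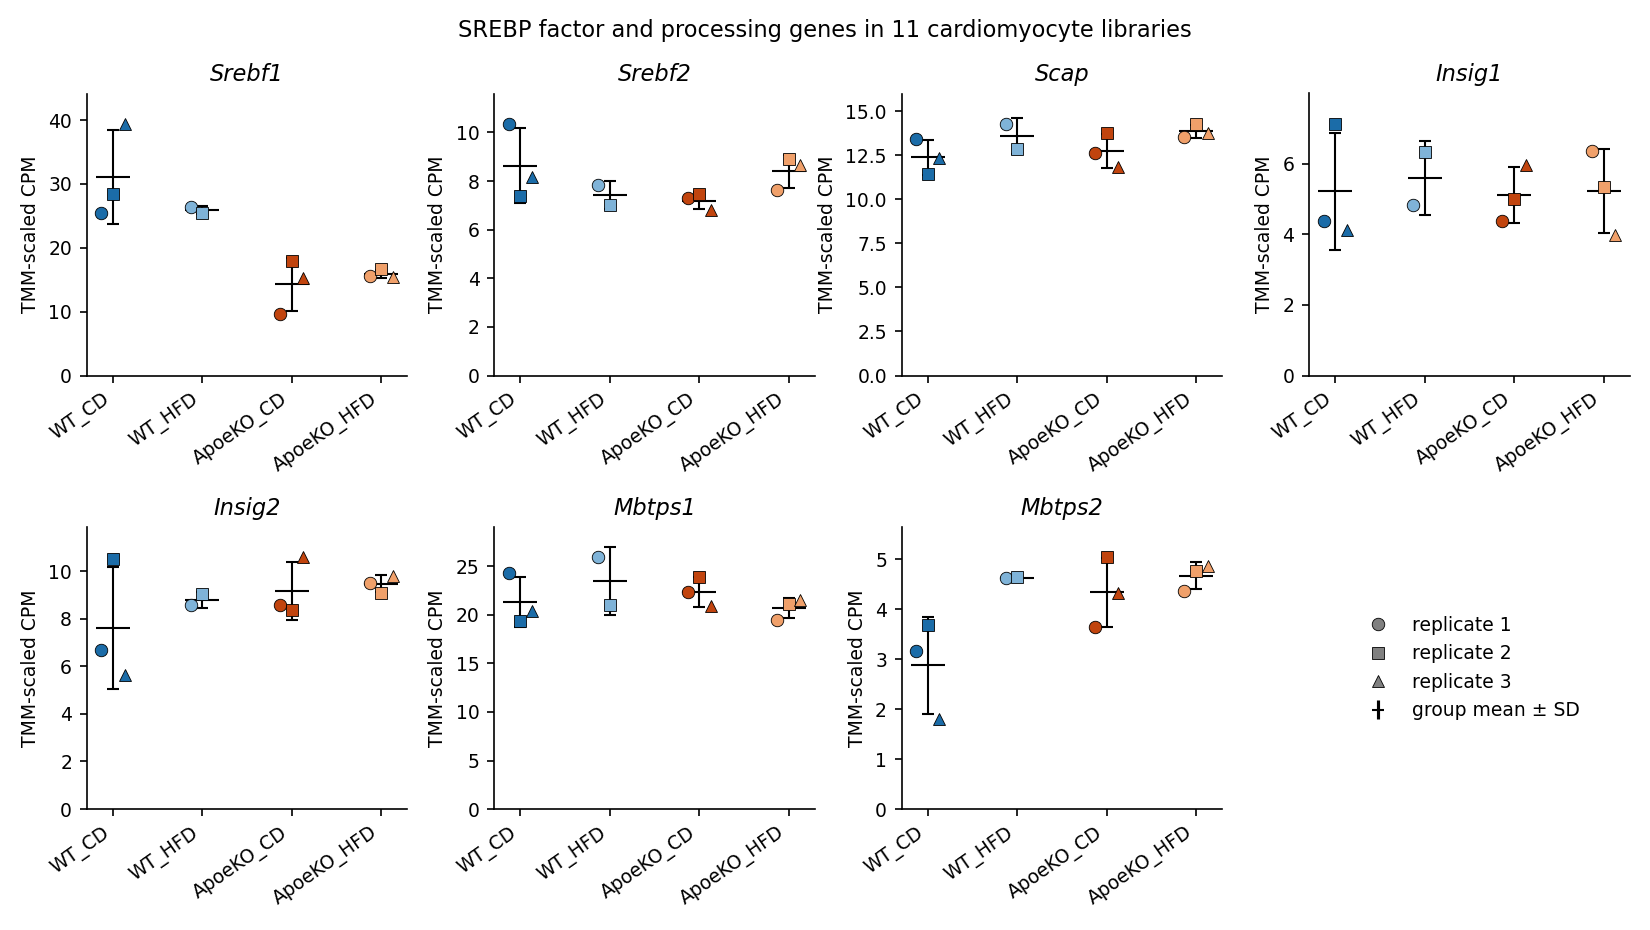
Level of each of the 7 genes in TMM-scaled CPM (y axis, from 0) by group (x axis), with 1 point per library, marker shape for the replicate and a bar with whiskers for the group mean ± SD (n = 2 for WT_HFD, 3 otherwise). All 5 WT-labelled libraries lie above all 6 ApoeKO-labelled libraries for Srebf1, from 25.4 CPM upward against 17.9 CPM and below, and for no other gene shown.

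Srebf1, the gene of SREBP-1, was lower in every ApoeKO-labelled library than in every WT-labelled library, on both diets. Its 3 WT_CD libraries had 25.4, 28.5 and 39.4 CPM, and the 2 WT_HFD libraries 26.4 and 25.5. ApoeKO_CD had 9.64, 17.9 and 15.2 CPM, and ApoeKO_HFD 15.6, 16.6 and 15.5. The order of the group means was WT_CD (31.1 ± 7.36, SD, n = 3), WT_HFD (25.9 ± 0.632, n = 2), ApoeKO_HFD (15.9 ± 0.628, n = 3) and ApoeKO_CD (14.3 ± 4.22, n = 3). WT_CD and WT_HFD overlapped, as did ApoeKO_HFD and ApoeKO_CD, so neighbours with the same genotype label did not separate. WT_CD replicate 3 was the highest library and ApoeKO_CD replicate 1 the lowest.

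In the fit over all genes, Srebf1 fell by 0.97 on the log2 scale (SE 0.19) in ApoeKO_HFD against WT_CD and by 1.13 (SE 0.19) in ApoeKO_CD against WT_CD. These are the differences known when the genes were listed, and the 2 comparisons share the WT_CD libraries. At an adjusted p under 0.05, Srebf1 was the 1 of 7 members called in each, where 0.154% and 0.508% of all genes tested were called. Nothing is read from these counts. Without WT_CD replicate 3 the 2 values were -0.76 and -0.93 and neither was called. The first call was also absent without any 1 of the ApoeKO_HFD libraries, with values of -1.001 to -0.951, and in 5 other settings of the fit.

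Against the WT_HFD libraries, Srebf1 in ApoeKO_HFD had a log2 difference of -0.71 (SE 0.21, unadjusted p = 0.00317, edgeR's quasi-likelihood test, two-sided). It did not pass after Benjamini-Hochberg adjustment over all genes (adjusted p = 0.9999). The genes were chosen with earlier results of these data known, so this difference is also given as description. All 3 ApoeKO_HFD libraries, which also served in the comparison with WT_CD, lay below both WT_HFD libraries. The adjusted p was 0.0258 with no low-count filter (-0.75) and 0.0384 when only the 2 groups were fitted (-0.71), and ranged up to 1 over the 14 alternatives. On the same diet contrast within a label, Srebf1 differed by -0.26 (SE 0.21, adjusted p = 0.619) in WT_HFD against WT_CD, and by less than its standard error in ApoeKO_HFD against ApoeKO_CD. The interaction, which asks whether the diet difference is the same under both labels, was 0.42 (SE 0.28, adjusted p = 0.71).

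The separation of Srebf1 by genotype label was noticed after the values were seen. It held for 133 of 16932 genes tested (0.785%), 56 higher and 77 lower in the WT-labelled libraries, and for 1 of the 7 members. The separation contains the 2 differences from WT_CD known when the genes were listed. It is therefore given as description, and nothing is read from these counts. The log2 gap between the lowest WT-labelled and the highest ApoeKO-labelled library was 0.51 with TMM scaling and 0.25 to 0.51 with 2 other scalings. Apoe itself did not separate by label. Rai1, whose tail overlaps that of Srebf1 on the other strand, had 18.8 to 35.6 CPM in the WT-labelled and 18.5 to 25.7 CPM in the ApoeKO-labelled libraries, and the 2 sets overlapped.

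Markers of other cells also lay lower in some of these comparisons, with no marker called by edgeR. Of 9 endothelial markers, 9 lay below 0 in ApoeKO_CD against WT_CD, 8 in ApoeKO_HFD against WT_CD and 9 in ApoeKO_HFD against WT_HFD (4, 1 and 0 at an unadjusted p under 0.05), and DESeq2 called 1 in the first. Over all 16932 genes, 2685, 2410 and 480 had an unadjusted p under 0.05, and DESeq2 called 434 in the first. The summed endothelial level was 55.5 to 128 CPM in WT_CD, 91.5 to 142 in WT_HFD, 59.3 to 79.0 in ApoeKO_CD and 69.5 to 101 in ApoeKO_HFD, and the groups overlapped in each of these 3 comparisons. Of 8 atrial markers, 7 lay below 0 in each of these 3 comparisons, with medians of -0.28, -2.28 and -1.90, and their sums were 319 to 373, 184 to 375, 321 to 355 and 211 to 366 CPM in the same order of groups. In these sums Clu alone had 165.6 to 270.5 CPM per library. Myl7 had 7.64 to 17.7 CPM in WT_CD, 14.8 and 0.0667 in WT_HFD, 4.14 to 10.8 in ApoeKO_CD, and 4.56, 0.261 and 0.600 in ApoeKO_HFD. Myl4, Sln and Dkk3 were likewise lowest in WT_HFD replicate 2 and ApoeKO_HFD replicates 2 and 3. Of 9 tested macrophage markers, 2, 9 and 9 lay below 0 (medians 0.77, -0.46 and -0.51), with sums of 10.7 to 19.96, 5.58 to 22.3, 6.11 to 32.7 and 8.53 to 11.98 CPM. Of 8 fibroblast markers, 4, 2 and 8 lay below 0 (medians -0.041, 0.27 and -0.39), with sums of 9.80 to 17.9, 19.2 to 20.5, 8.66 to 17.5 and 13.2 to 16.8 CPM. Pericyte and smooth muscle markers did not lie lower, with 4, 2 and 4 of 8 below 0 (medians 0.044, 0.15 and 0.0087). Their sums were 179.5 to 251.6, 251.9 to 271.5, 247.5 to 278.9 and 270.4 to 279.3 CPM. Abcc9 alone had 132 to 231.7 CPM per library, so these sums mostly follow that 1 gene. Summed adipocyte markers were 1.16 to 1.72 CPM in WT_CD, 0.378 to 0.465 in WT_HFD, 0.530 to 0.675 in ApoeKO_CD and 0.671 to 0.884 in ApoeKO_HFD, and Adipoq, a defining marker, had 0 to 8 counts per library. The part of these cells in the Srebf1 result was not tested. In bulk RNA, fewer cells of a type and less RNA per cell cannot be told apart.

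Srebf2, the gene of SREBP-2 (ENSMUSG00000022463, chromosome 15, 82147181 to 82205379, plus strand), did not follow Srebf1. It had 10.4, 7.37 and 8.18 CPM in WT_CD, 7.85 and 7.03 in WT_HFD, 7.30, 7.46 and 6.79 in ApoeKO_CD, and 7.62, 8.91 and 8.68 in ApoeKO_HFD. The ApoeKO_HFD libraries lay above the ApoeKO_CD libraries, while WT_CD overlapped each of the other groups. By group mean the order was WT_CD (8.64 ± 1.55), ApoeKO_HFD (8.40 ± 0.687), WT_HFD (7.44 ± 0.583) and ApoeKO_CD (7.19 ± 0.351), and each neighbouring pair overlapped. No comparison passed. The log2 fold changes were 0.22 (SE 0.16, adjusted p = 0.9997) for ApoeKO_HFD against ApoeKO_CD, -0.27 (SE 0.16, adjusted p = 0.421) for ApoeKO_CD against WT_CD and -0.22 (SE 0.18, adjusted p = 0.621) for WT_HFD against WT_CD. The interaction was 0.44 (SE 0.24, adjusted p = 0.651). Mir33, the gene of a microRNA inside an intron of Srebf2, is counted as a separate gene and had 0 to 2 counts.

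The ratio of Srebf1 to Srebf2 within a library does not depend on library scaling. Per kilobase, Srebf1 was 3.13, 4.92 and 6.13 times as abundant as Srebf2 in WT_CD and 4.28 and 4.62 times in WT_HFD. It was 1.68, 3.05 and 2.86 times in ApoeKO_CD and 2.61, 2.38 and 2.27 times in ApoeKO_HFD. Every ApoeKO-labelled library lay below every WT-labelled one, and Srebf1 remained the more abundant of the pair in all 11. On the log2 scale of counts the group means were 1.84 ± 0.495 in WT_CD, 1.80 ± 0.0781 in WT_HFD, 0.941 ± 0.472 in ApoeKO_CD and 0.922 ± 0.101 in ApoeKO_HFD (SD). These ratios contain the Srebf1 levels known beforehand, so the differences from WT_CD, -0.91 for ApoeKO_HFD and -0.90 for ApoeKO_CD, are a description. ApoeKO_HFD differed from WT_HFD by -0.88 (exact permutation test, two-sided, p = 0.2, the smallest that 3 against 2 libraries allow, 0.4 after adjustment over 10 ratio comparisons).

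**Figure D2:**
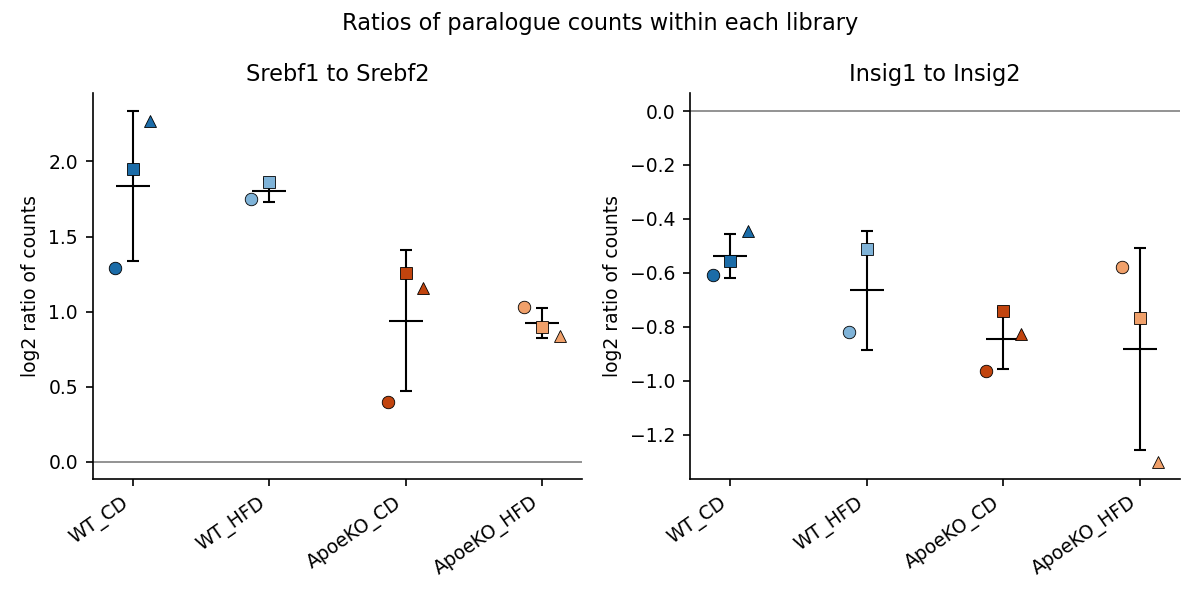
Log2 ratio of counts within each library (y axis) by group (x axis) for Srebf1 to Srebf2 (left) and Insig1 to Insig2 (right), with 1 point per library, marker shape for the replicate as in the plot of levels, and a bar with whiskers for the group mean ± SD. On the left, the ApoeKO-labelled libraries reach 1.26 at most and the WT-labelled libraries start at 1.29, while on the right the groups overlap except WT_CD and ApoeKO_CD.

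Scap, the sterol sensor and escort of the precursors (ENSMUSG00000032485, chromosome 9, 110333288 to 110384950, plus strand), had the narrowest range of the 7 genes. It had 13.4, 11.4 and 12.3 CPM in WT_CD, 14.3 and 12.9 in WT_HFD, 12.6, 13.8 and 11.8 in ApoeKO_CD, and 13.5, 14.3 and 13.8 in ApoeKO_HFD. The lowest ApoeKO_HFD library exceeded the highest WT_CD library by a small margin (13.52 against 13.42 CPM). The log2 difference between these groups was 0.16 (SE 0.13, adjusted p = 0.609), and the other 4 comparisons between groups gave differences below their standard errors.

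The 2 INSIG genes, whose proteins retain SCAP in the endoplasmic reticulum, showed no called difference. Insig1 (ENSMUSG00000045294, chromosome 5, 28071363 to 28078662, plus strand), itself a known SREBP target, had 4.39, 7.13 and 4.13 CPM in WT_CD, 4.84 and 6.34 in WT_HFD, 4.38, 5.003 and 5.96 in ApoeKO_CD, and 6.35, 5.33 and 3.98 in ApoeKO_HFD. All 4 groups overlapped, and each of the 5 differences between groups was smaller than its standard error. Insig2 (ENSMUSG00000003721, chromosome 1, 121304353 to 121332589, minus strand) had 6.70, 10.5 and 5.63 CPM in WT_CD, 8.56 and 9.03 in WT_HFD, 8.57, 8.38 and 10.6 in ApoeKO_CD, and 9.51, 9.09 and 9.80 in ApoeKO_HFD. WT_CD held both its lowest libraries and, in replicate 2, 1 of its highest. Its log2 difference was 0.32 (SE 0.19, adjusted p = 0.467) in ApoeKO_HFD against WT_CD and 0.28 (SE 0.19, adjusted p = 0.499) in ApoeKO_CD against WT_CD. Without WT_CD replicate 2 these became 0.62 (adjusted p = 0.027) and 0.57 (adjusted p = 0.029), both past the threshold. That setting raised calls over all genes as well, to 1304 and 1801 of 16732, against 26 and 86 of 16932 in the reported fit.

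Insig2 was the more abundant of the INSIG pair in every library. Per kilobase, Insig1 reached 0.737, 0.763 and 0.824 of the Insig2 level in WT_CD, 0.636 and 0.789 in WT_HFD, 0.575, 0.672 and 0.633 in ApoeKO_CD, and 0.751, 0.659 and 0.456 in ApoeKO_HFD. The 3 ApoeKO_CD ratios lay below the 3 WT_CD ratios. The log2 means were -0.84 ± 0.113 and -0.54 ± 0.0826, a difference of -0.31 (exact permutation test, two-sided, p = 0.1, the smallest that 3 against 3 allow, 0.333 adjusted over the 10 ratio comparisons). No other pair of groups separated.

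Mbtps1, the gene of the site-1 protease (ENSMUSG00000031835, chromosome 8, 119508156 to 119558735, minus strand), had 24.3, 19.4 and 20.4 CPM in WT_CD, 25.9 and 21.0 in WT_HFD, 22.3, 23.9 and 20.9 in ApoeKO_CD, and 19.5, 21.1 and 21.5 in ApoeKO_HFD. All groups overlapped. Between ApoeKO_HFD and WT_HFD the log2 difference was -0.18 (SE 0.15, adjusted p = 0.9999) and the interaction -0.25 (SE 0.20, adjusted p = 0.763). Its range over the libraries was the narrowest after that of Scap.

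Mbtps2, the gene of the site-2 protease (ENSMUSG00000046873, chromosome X, 157535371 to 157598715, minus strand), had the lowest values in WT_CD. There it had 3.16, 3.68 and 1.80 CPM, against 4.62 and 4.65 in WT_HFD, 3.65, 5.04 and 4.32 in ApoeKO_CD, and 4.37, 4.77 and 4.88 in ApoeKO_HFD. Both HFD groups lay above WT_CD in every library, and ApoeKO_CD overlapped it in 1 library. The log2 differences from WT_CD were 0.70 (SE 0.23, adjusted p = 0.21) for ApoeKO_HFD, 0.68 (SE 0.25, adjusted p = 0.277) for WT_HFD and 0.58 (SE 0.23, adjusted p = 0.225) for ApoeKO_CD. None passed, and the 3 comparisons share the WT_CD libraries. Without WT_CD replicate 2 they were 0.90 (adjusted p = 0.0264), 0.89 (adjusted p = 0.0405) and 0.79 (adjusted p = 0.0375). That setting raised calls over all genes as well, to 1304, 1019 and 1801 of 16732, against 26, 35 and 86 of 16932 in the reported fit. Without WT_CD replicate 3, the library with 48 counts, the 3 Mbtps2 differences were 0.45, 0.44 and 0.34 and none passed. The interaction was -0.57 (SE 0.33, adjusted p = 0.676).

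Across the 7 genes, edgeR called no member in WT_HFD against WT_CD, ApoeKO_HFD against ApoeKO_CD, ApoeKO_HFD against WT_HFD or the interaction, and DESeq2 and voom called none there either. At an unadjusted p under 0.05 there were 1 (Mbtps2), 0, 1 (Srebf1) and 0 members, beside 2176, 259, 480 and 1388 of 16932 genes. Of all genes tested, 0.207%, 0.0709%, 0.0472% and 0.219% were called in these 4. Groups did not overlap for 3 members in ApoeKO_HFD against WT_CD (Srebf1 below, Scap and Mbtps2 above), where 15.6% of all genes did not. For the other comparisons the count was 1 in ApoeKO_CD against WT_CD (Srebf1 below, 16.6% of all genes), 1 in WT_HFD against WT_CD (Mbtps2 above, 24.7%), 1 in ApoeKO_HFD against ApoeKO_CD (Srebf2 above, 9.04%) and 2 in ApoeKO_HFD against WT_HFD (Srebf1 below, Insig2 above, 21.7%). The median log2 difference of the 7 genes lay between 0.0046 and 0.13 in these 5 comparisons, beside medians of -0.014 to 0.011 over all genes.

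**Figure D3:**
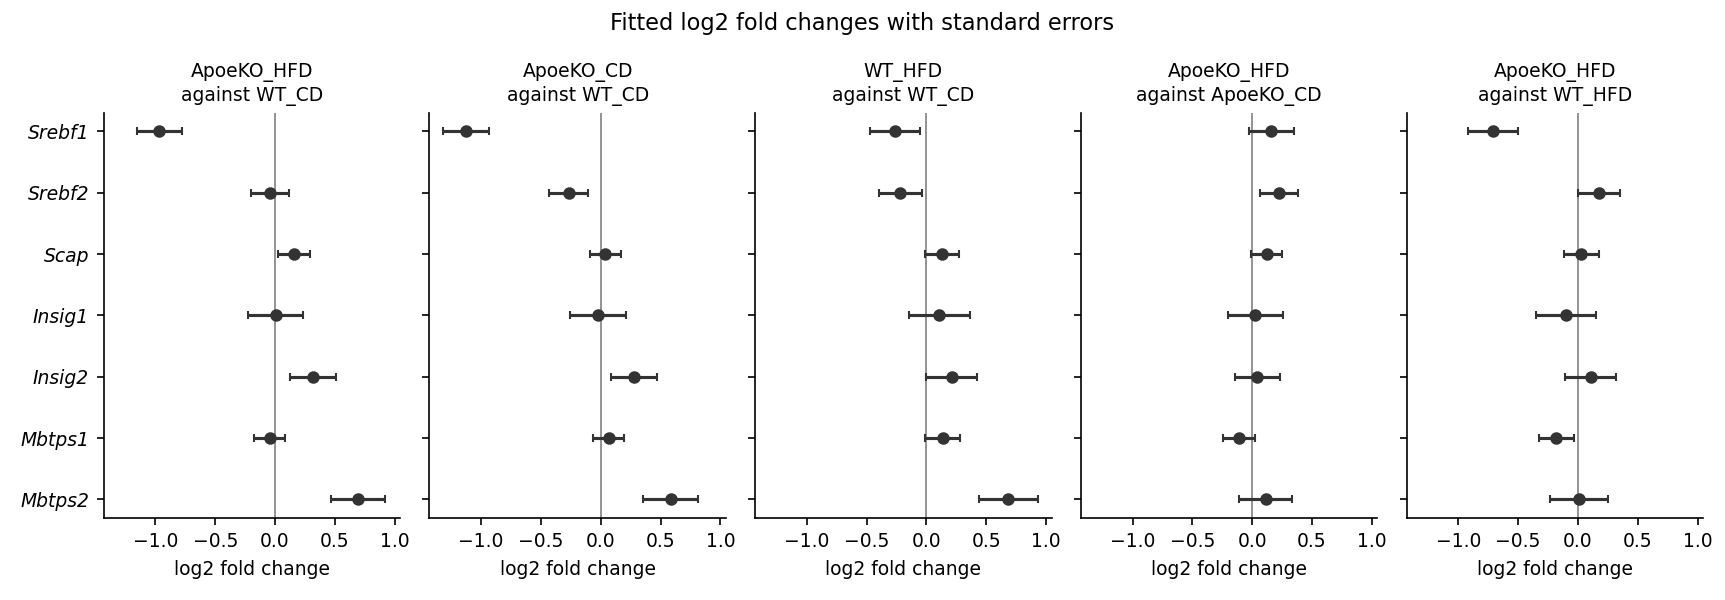
Fitted log2 fold change (x axis) with its standard error for the 7 genes (y axis) in 5 comparisons between groups (panels), from 1 fit over 11 libraries. Srebf1 lies at -0.97, -1.13 and -0.71 in the 3 comparisons of an ApoeKO-labelled with a WT-labelled group, Mbtps2 lies at 0.58 to 0.70 in the 3 comparisons with WT_CD, and the other genes lie near 0.

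Over the 11 libraries the genes did not vary as a block. The highest Pearson correlation of log2 levels among the 21 pairs was 0.79 for Insig2 and Mbtps2, followed by 0.62 for Insig1 and Insig2. Srebf1 had -0.54 with Mbtps2, -0.52 with Insig2 and 0.21 with Srebf2. These are descriptions, since the libraries share groups and scaling. The 5 genes most like Srebf1 among 4789 of adequate level were Slc25a42, a mitochondrial carrier of coenzyme A (r = 0.93), Slc25a22, a mitochondrial glutamate carrier (0.92), Epas1, the gene of HIF-2alpha (0.90), Slc27a1, a fatty acid transport protein (0.90), and Cyb5r3, a cytochrome b5 reductase (0.88). Epas1, which is abundant in endothelium, spanned 110.5 to 138.7 CPM, a narrower range than that of Srebf1. The genes most like Srebf2 included Ccdc9b (0.94), Tbc1d22b (0.92), the splicing regulator Rbm10 (0.91) and Tmcc2 (0.89).

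Genes that SREBP-1 is known to activate gave few calls, and their count depended on the tool. Of 17 tested genes on the list of SREBP-1 lipogenic targets, edgeR called 1 lower in ApoeKO_CD against WT_CD, where it called 0.508% of all genes. DESeq2 called 3 there (Fasn, Scd1 and Scd2), and 5 had an unadjusted p under 0.05 (also Fads1 and Mid1ip1), all 5 lower. Over all 16932 genes, DESeq2 called 434 there and 2685 had an unadjusted p under 0.05 in edgeR. Of the 17, 12 lay below 0, with a median log2 difference of -0.18 beside -0.014 over all genes. In ApoeKO_HFD against WT_CD none was called by edgeR (2 at an unadjusted p under 0.05, 1 by DESeq2), 10 of 17 lay below 0, and the median was -0.079 beside -0.0079. Over all genes these counts were 2410 at an unadjusted p under 0.05 and 204 by DESeq2. In ApoeKO_HFD against WT_HFD none was called by either tool (1 at an unadjusted p under 0.05) and 12 of 17 lay above 0. There 480 of all genes had an unadjusted p under 0.05.

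The gene called by edgeR was Scd2, a stearoyl-CoA desaturase that makes monounsaturated fatty acids. It had 16.7, 17.6 and 10.02 CPM in WT_CD, 9.27 and 6.54 in WT_HFD, 2.81, 2.34 and 2.53 in ApoeKO_CD, and 6.40, 10.1 and 9.18 in ApoeKO_HFD. The 3 ApoeKO_CD libraries were the lowest of all 11, and the ApoeKO_HFD libraries overlapped WT_HFD. Scd2 fell by 2.52 on the log2 scale (SE 0.23, edgeR adjusted p = 4.13e-05) in ApoeKO_CD against WT_CD, lower in 3 of 3 libraries, and rose by 1.73 (SE 0.23, adjusted p = 0.00198) in ApoeKO_HFD against ApoeKO_CD. Srebf1 had no such difference between these last 2 groups. Acacb and Gpam, the list's genes with the highest level per length, encode the acetyl-CoA carboxylase of the mitochondrial surface and a glycerol-3-phosphate acyltransferase. Their log2 differences in ApoeKO_CD against WT_CD were -0.20 (SE 0.12, adjusted p = 0.43) and -0.13 (SE 0.19, adjusted p = 0.768).

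Genes of cholesterol synthesis and uptake, the known targets of SREBP-2, showed no called difference. None of 22 tested was called by edgeR, DESeq2 or voom in any of the 6 tests. At an unadjusted p under 0.05 there were 4, 2 and 1 in the comparisons of ApoeKO_HFD, ApoeKO_CD and WT_HFD with WT_CD. Over all 16932 genes there were 2410, 2685 and 2176. In the other tests none of the 22 had an unadjusted p under 0.05. The list's medians ran from -0.083 to 0.21. Its summed level was 57.7 to 65.4 CPM in WT_CD, 65.1 to 67.8 in WT_HFD, 60.8 to 69.2 in ApoeKO_CD and 63.4 to 70.3 in ApoeKO_HFD. Fdft1, squalene synthase, and Hmgcs1, HMG-CoA synthase, had the highest levels per length. In ApoeKO_HFD against WT_CD they differed by 0.26 (SE 0.14, adjusted p = 0.422) and 0.11 (SE 0.18, adjusted p = 0.828).

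**Figure D4:**
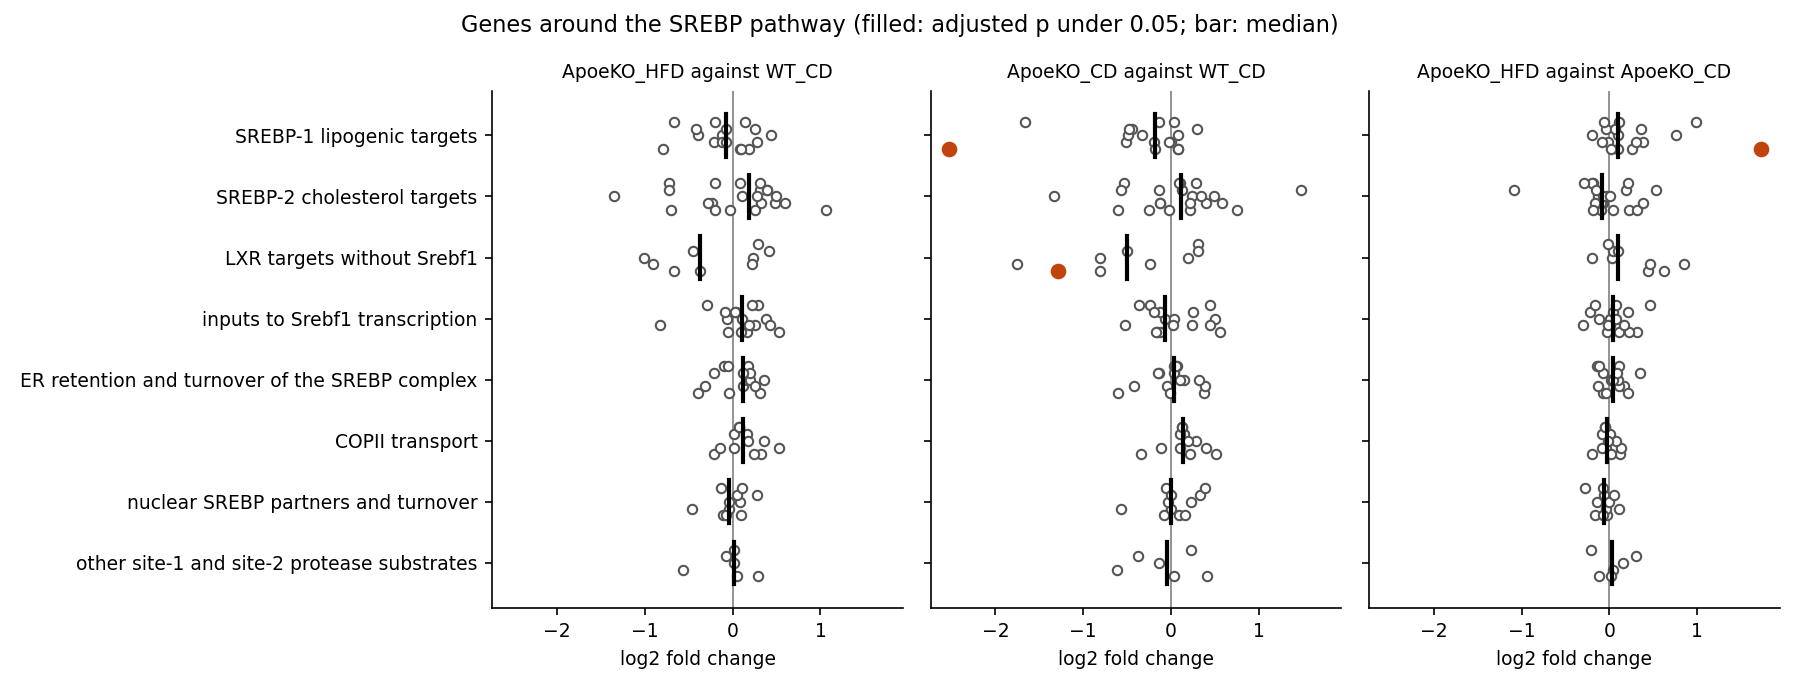
Log2 fold change (x axis) of each tested gene in 8 lists around the SREBP pathway (y axis) in 3 comparisons (panels). Filled points have an adjusted p under 0.05, open points do not, and bars are list medians, so the filled points are Scd2 and Abca1 at the left of the middle panel and Scd2 at the right of the last.

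LXR, the oxysterol receptor that is known to drive Srebf1, has other targets, of which 9 were tested. Abca1, a cholesterol exporter, was called lower in ApoeKO_CD against WT_CD by 1.29 on the log2 scale (SE 0.16, edgeR adjusted p = 0.000505). It had 67.0, 72.7 and 60.3 CPM in WT_CD, 58.4 and 45.3 in WT_HFD, 24.8, 34.8 and 22.5 in ApoeKO_CD, and 41.4, 40.8 and 43.9 in ApoeKO_HFD. Abca1 was also lower in every ApoeKO-labelled than in every WT-labelled library, which was noticed after the values were seen. Its margin with TMM scaling was narrow, 45.3 CPM in WT_HFD replicate 2 against 43.9 in ApoeKO_HFD replicate 3. Whether the Abca1 margin holds with other scalings was not tested, and 0.785% of all genes tested separated by label. The 2 ApoeKO-labelled groups did not overlap each other for Abca1. The list's median in that comparison was -0.50, with 6 of 9 below 0. Of the 9, 3 had an unadjusted p under 0.05, and DESeq2 called Abca1, Abcg1 and Mylip. Over all 16932 genes, 2685 had an unadjusted p under 0.05 there and DESeq2 called 434. In ApoeKO_HFD against WT_CD edgeR called none (3 at an unadjusted p under 0.05, 1 by DESeq2) and the median was -0.37. The counts over all genes were 2410 and 204 in that comparison. In ApoeKO_HFD against WT_HFD edgeR and DESeq2 called none of the 9, 6 lay below 0, and the median was -0.041. There 1 of the 9 (Nr1h3) had an unadjusted p under 0.05, beside 480 of all genes. Lpl and Smpdl3a sit on the same list, and Smpdl3a differed by 0.31 (SE 0.23, adjusted p = 0.518) in ApoeKO_CD against WT_CD.

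Other inputs to Srebf1 transcription, namely the LXR and RXR receptors, insulin signalling, AMP-activated kinase and E-box factors, gave 0 of 17 called by edgeR in each of the 6 tests, with 2 to 5 at an unadjusted p under 0.05. Over all 16932 genes, 259 to 2685 had an unadjusted p under 0.05 in the 6 tests. DESeq2 called Insr, the insulin receptor gene, in ApoeKO_CD against WT_CD, and voom called 1 gene in ApoeKO_HFD against WT_HFD and 1 in the interaction. In these same tests DESeq2 called 434 of all genes, and voom called 39 and 72. Akt1, a kinase downstream of insulin, differed by 0.67 (SE 0.17, adjusted p = 0.568) in ApoeKO_HFD against WT_HFD, and Prkaa2, a catalytic subunit of AMP-activated kinase, by 0.43 (SE 0.14, adjusted p = 0.214) in ApoeKO_HFD against WT_CD.

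The machinery around the precursors was also without a call. None of 15 genes of retention and turnover in the endoplasmic reticulum was called by edgeR, DESeq2 or voom in any of the 6 tests (0 to 1 at an unadjusted p under 0.05). Over all 16932 genes, 259 to 2685 had an unadjusted p under 0.05, the background for each list here. Vcp, the extraction ATPase, differed by less than its standard error in ApoeKO_CD against WT_CD. None of 12 COPII genes was called by the 3 tools, with 0 to 3 at an unadjusted p under 0.05, and 10, 10 and 9 of 12 lay above 0 in ApoeKO_HFD, ApoeKO_CD and WT_HFD against WT_CD, with medians of 0.12, 0.14 and 0.16. The vesicle GTPase genes Sar1a and Sar1b differed by 0.53 (SE 0.19, adjusted p = 0.248) and 0.36 (SE 0.23, adjusted p = 0.504) in ApoeKO_HFD against WT_CD. Of 11 nuclear partners and turnover factors none was called by any of the 3, with 0 to 2 at an unadjusted p under 0.05. Lmna, the nuclear lamin gene, and Nfyc, a subunit of the CCAAT-binding factor, differed by -0.13 (SE 0.12) and 0.052 (SE 0.15) in that comparison. Among 6 tested genes of other substrates of the site-1 and site-2 proteases none was called by any of the 3, with 0 to 2 at an unadjusted p under 0.05. The stress sensor Atf6 differed by 0.41 (SE 0.14, adjusted p = 0.189) and the transferase gene Gnptab by 0.035 (SE 0.14, adjusted p = 0.93) in ApoeKO_CD against WT_CD.

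**Figure D5:**
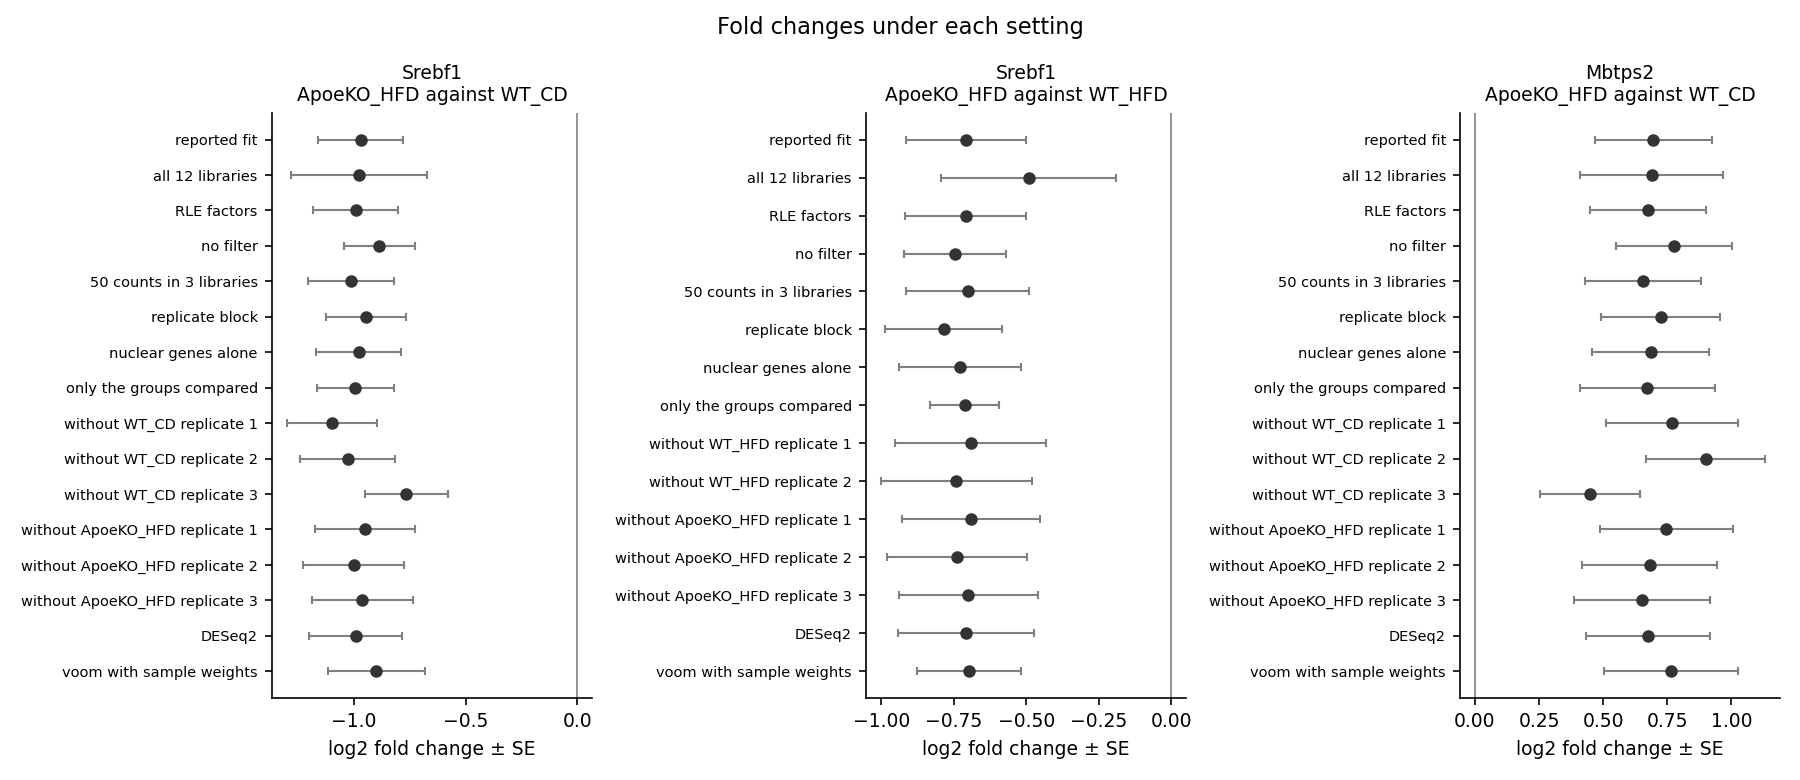
Log2 fold change (x axis) with its standard error for Srebf1 in 2 comparisons and for Mbtps2 in 1, under the reported fit and each alternative (y axis). Srebf1 against WT_CD lies between -1.10 and -0.76, Srebf1 against WT_HFD between -0.79 and -0.49 with the weakest value in the fit of all 12 libraries, and Mbtps2 between 0.45 and 0.90, the ends being the fits without WT_CD replicate 3 and without WT_CD replicate 2.

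In the plot of settings, the lowest and highest values of the 2 differences from WT_CD came from fits without a WT_CD library. For Srebf1 in ApoeKO_CD against WT_CD, which is not plotted, they came from fits without an ApoeKO_CD library (-1.32 and -0.92). The 3 WT_CD libraries had the lowest of the 11 quality weights in a voom fit, 0.372 to 0.676 against 0.743 to 2.13 in the others. WT_CD replicate 3 had the highest Srebf1 and the lowest Mbtps2 level of its group, and WT_CD replicate 2 had the highest Insig1, Insig2 and Mbtps2 levels of its group.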

How the data were processed

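RNA of 12 cardiomyocyte libraries was isolated with a Maxwell simplyRNA kit and prepared with the SMART-Seq Stranded kit, per the labels' protocols. Trimmomatic 0.39, STAR 2.7a, HTSeq 0.13.5 and GRCm38 are named in the submitters' processing notes. The authors deposited whole-number read counts per gene for each library, without normalization. A GRCm38 annotation gave 55154 of 55335 identifiers a symbol. The members and gene lists were chosen with earlier results of these data known.

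Counts of 11 libraries were fitted with edgeR 4.0.16 in R 4.3.3 (TMM factors, default filter by group, robust quasi-likelihood F test, 1 mean per group, 7 residual degrees of freedom), and p-values were adjusted by the Benjamini-Hochberg method over 16932 genes. WT_HFD replicate 3 was left out because earlier work on these data took its counts to be of the opposite strand. The steps were tested on simulated data with 200 genes changed 2-fold in ApoeKO_HFD. The comparison with WT_CD recovered 65 of them (32.5%), with 4 false calls. A gene without a call is therefore not shown to be unchanged. Named genes are the 7 members, Apoe, every called list gene or otherwise the list's 2 genes with the highest level per length, and the 5 genes most correlated with Srebf1 and Srebf2. Some genes that this rule takes are not reported here. Log2 levels used a prior count of 0.5.

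Replicates of a group differed by more than sampling noise (chi-square per degree of freedom 24.6 to 189.7). Of 15 pairs of libraries with the same replicate number, 1 had deviations correlated above 0.1 (range -0.163 to 0.182), and no shared litter or day is named, so no pairing was used. Alternatives used DESeq2 1.42.0, limma 3.58.1 (voom with sample weights), other scalings, filters and sets of libraries. Intervals are not given, since no share of 1 library is reported.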

Additional observations from a re-analysis of the deposited data

Results flagged for a closer look

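The interaction of diet and genotype label for Scd2 was 2.64 on the log2 scale (SE 0.34, edgeR adjusted p = 0.000647). It was singled out because the diet difference had opposite signs under the 2 labels, -0.91 (SE 0.24, adjusted p = 0.168) in WT_HFD against WT_CD and 1.73 in ApoeKO_HFD against ApoeKO_CD. Over 19 alternatives it ran from 2.36 to 2.87 and was called in each. The labels of the chow groups go against the Apoe levels, so this sign rests on the labels.

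The transcript 5830462I19Rik, which lies on the other strand of Scap, had 139 counts in WT_HFD replicate 3, the library left out of the fit, against 1 to 12 in the other libraries. It was singled out as signal in a library that the reported comparisons left out.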

How the results depend on the processing

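The number of members called in ApoeKO_HFD against WT_CD, 1 in the reported fit, was 0 with all 12 libraries, with nuclear genes alone, with only the groups compared and with voom weights, and 0 to 3 with 1 library left out (3 without WT_CD replicate 2, which adds Insig2 and Mbtps2 to Srebf1, and 0 without WT_CD replicate 3 or any 1 ApoeKO_HFD library). With the replicate number as a block it was 0, Srebf1 having -0.94, and the block changed no other member's call. Same-numbered libraries shared only a number. In ApoeKO_CD against WT_CD the count of 1 became 0 with all 12 libraries and 0 to 3 with 1 library left out (0 without WT_CD replicate 3, 3 without WT_CD replicate 2, the same 3 genes). In WT_HFD against WT_CD it was 0 to 1 (Mbtps2 without WT_CD replicate 2), and in ApoeKO_HFD against WT_HFD 1 (Srebf1) with no filter and with only the groups compared. Without WT_CD replicate 2, calls over 16732 genes were 1304, 1801 and 1019 for ApoeKO_HFD, ApoeKO_CD and WT_HFD against WT_CD. The reported fit called 26, 86 and 35 of 16932. ApoeKO_HFD against ApoeKO_CD and the interaction kept 0 members in the alternatives run. Mbtps1 in ApoeKO_HFD against WT_HFD reversed to 0.050 with all 12 libraries. The cause was not tested.

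Of 281 alternative values of 18 member differences, 262 kept direction and side of the threshold, 11 lost and 7 gained a call, and 1 reversed. Member differences smaller than their own standard error in the reported fit were left out of these 18. Such differences change sign most easily, so the count of reversals does not describe all member differences. Srebf1 ran from -1.10 to -0.76 in ApoeKO_HFD against WT_CD and from -1.32 to -0.92 in ApoeKO_CD against WT_CD. Scd2 and Abca1, under settings added after the data were seen, lost a call only with all 12 libraries, where Abca1 had -1.29 in ApoeKO_CD against WT_CD and Scd2 1.74 in ApoeKO_HFD against ApoeKO_CD. The ratio comparisons moved by less than the spread between replicates. Depth limits Mbtps2 most, with 48 to 209 counts.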
